A study of Oryza sativa with 12 samples.

Results

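Shoots of rice that overexpress *OsERF106MZ* (OE) were compared with shoots of their parental cultivar, Tainung 67, in the absence of added NaCl. The comparison took 6 of the 12 arrays of the study, 3 of OE and 3 of Tainung 67. They were chosen by the genotype and the word Control in their titles, which give no NaCl concentration. The comparison covered all 42477 probes other than control spots on an Agilent rice microarray. In the OE plants the constitutive cauliflower mosaic virus 35S promoter drives *OsERF106MZ* in the Tainung 67 background, so the transgene is not limited to the cells that normally express the gene. Which OE line was on the arrays is not given, and 1 of the 2 lines of the study carries the protein fused to GFP. All seedlings were 8 days old when their aerial parts were taken, and had spent the last day in medium with 0 mM NaCl (the 6 arrays described here) or 150 mM NaCl (the other 6). Tainung 67 carries no transgene and served as the control under both conditions.

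OsERF106MZ belongs to the ethylene response factors, plant transcription factors that bind DNA through an AP2/ERF domain and are best known for binding the GCC box, an element found in the promoters of many pathogenesis-related genes. Abscisic acid (ABA), the hormone of drought and salt responses, acts through receptors that inhibit clade A protein phosphatases, which frees SnRK2 kinases to activate bZIP factors such as ABI5. Among the targets of this pathway are the late embryogenesis abundant (LEA) proteins and dehydrins, hydrophilic proteins that accumulate when cells lose water. The level of *OsERF106MZ* itself and the promoters of the genes below were not analysed here.

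The arrays give one intensity for each spot, and all levels below are log2 signals after background correction and quantile normalization, so a difference of 1 is a 2-fold difference. Of the 42477 probes, 37144 rose well above background on 3 or more of the 12 arrays and were tested with limma. Probes with an adjusted p (Benjamini-Hochberg) below 0.05 that differed by more than 2-fold are said to have passed. Spot signals had array medians of 315.5 to 814.5 units, over local backgrounds of 44 to 50 units. Replicates 1 and 3 lay on slide 1 for Tainung 67 and on slide 2 for OE, while replicate 2 of both genotypes lay on slide 3, which was scanned at another session, so a difference between the genotypes within a slide can be read on slide 3 only, from 1 array of each. Across probes, replicates 1 and 3 correlated with Pearson's r of 0.996 in Tainung 67 and 0.993 in OE, against 0.976 to 0.980 for pairs that included replicate 2. The study's own list of genes numbers replicates 1 and 3 as one sample, and the p-values measure only the spread between arrays, which may be technical.

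Unstressed OE shoots differed from Tainung 67 shoots at 1618 probes, which is 4.36% of those tested. Of these, 765 (2.06%) were higher in OE and 853 (2.3%) were lower. The probes that were higher started from a low level in Tainung 67, with a median log2 signal of 6.86 against 9.17 in OE, and the probes that were lower started from 8.84 and reached 7.20, while the median over all tested probes was 9.37 in both genotypes. Large differences were mostly increases. Among the probes that were higher in OE, 285 differed by more than 4-fold and 47 by more than 16-fold, and among those that were lower, 148 and 9 did. The 3 OE arrays lay wholly above the 3 Tainung 67 arrays for 763 of the 765 probes and wholly below them for 848 of the 853. Of all tested probes, 33.8% were separated in either direction. The passing probes were chosen for a difference on these same arrays, so their separation is no independent evidence.

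**Figure D1:**
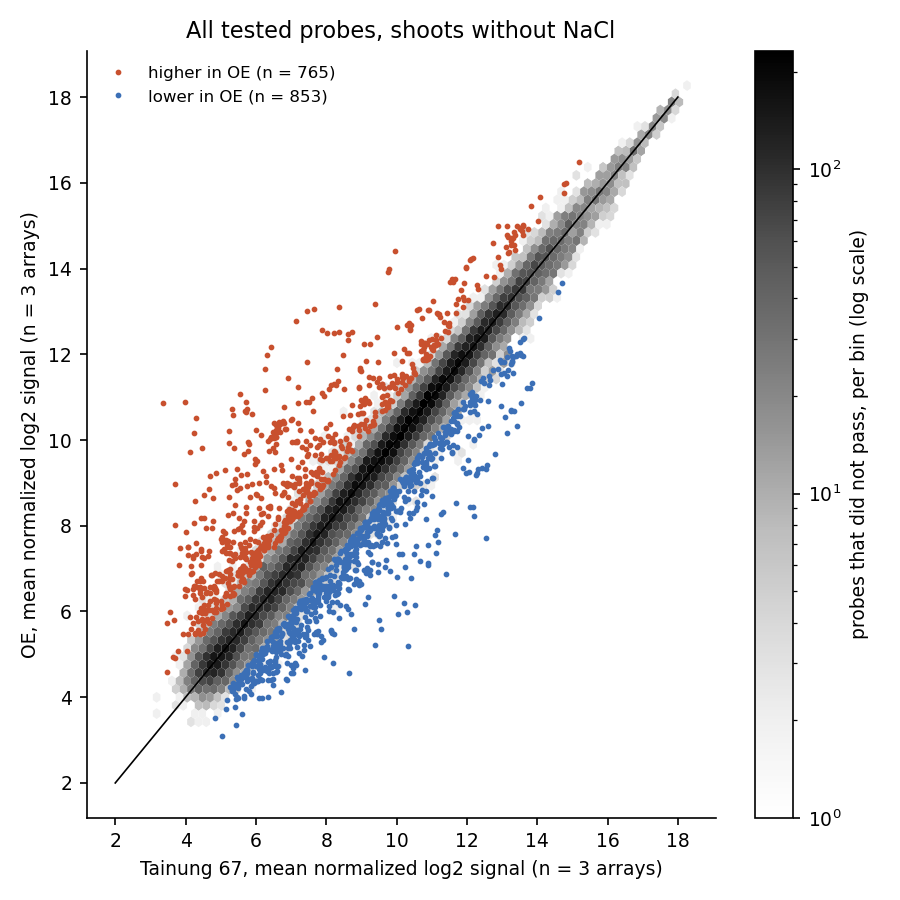
Mean log2 signal in OE (y axis, 3 arrays) against that in Tainung 67 (x axis, 3 arrays) for each tested probe without NaCl, with the 765 probes that passed upward in red, the 853 that passed downward in blue and the others as grey bins shaded by their number on a log scale. The line marks equal levels, and the red points reach farther from it than the blue ones, most of all at low Tainung 67 levels.

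The probes that passed kept their direction on slide 3, whose arrays had also entered their choice, in all 765 cases of increase and 852 of 853 cases of decrease, the last having no value on slide 3. Their differences were smaller there. The median log2 difference of the increases was 1.34 within slide 3 and 1.82 between slides 1 and 2, and that of the decreases was -1.20 and -1.50. With slide as a term of the fit, 946 probes passed, 549 upward and 397 downward. When replicates 1 and 3 were averaged to 1 value, 177 passed.

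**Figure D2:**
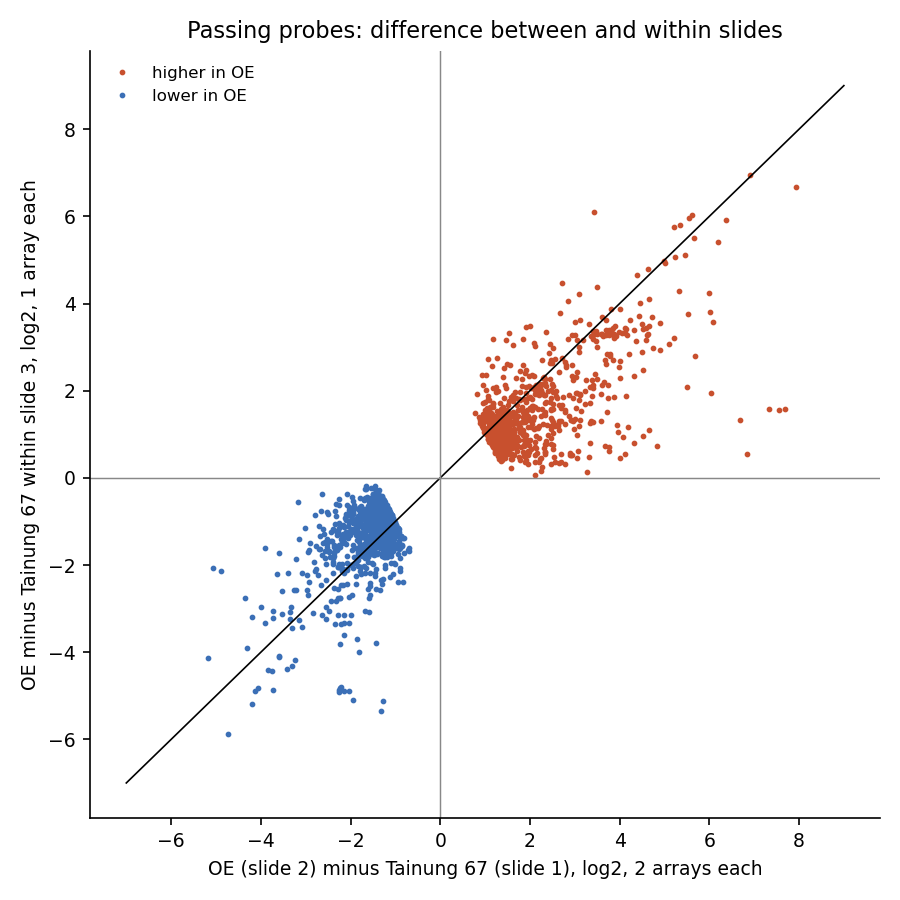
Log2 difference between OE and Tainung 67 within slide 3 (y axis, 1 array of each genotype) against that between slides 2 and 1 (x axis, 2 arrays each) for the probes that passed upward (red) and downward (blue). The line marks equal differences, and the median increase is 1.34 on the y axis and 1.82 on the x axis.

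The study's gene lists pair part of the probes with a rice locus, and these names were used. Because those lists were drawn up from these same arrays, the 1612 tested probes with a locus were chosen for differing between some of the groups, and their shares that passed here (21.9% higher in OE and 25.8% lower) are far above those of all probes by that choice. Counts over the named genes are therefore no independent evidence of their direction. Roles and symbols are those in general use for the loci. Among the 12 named genes with the largest increases were a thaumatin-like protein, 3 neighbouring chitinase family genes and a PR1-type gene. Among the 12 with the largest decreases were 2 neighbouring class III peroxidases and a defensin. Both sets were chosen with the arrays of the genotypes apart and the same direction on slide 3, so neither trait is a result for them.

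Thaumatin-like proteins form the PR5 family of pathogenesis-related proteins. The log2 signal of the thaumatin-like gene LOC_Os12g43450 was 5.61, 5.33 and 5.74 in Tainung 67 (replicates 1 to 3, the order used throughout) and 10.85, 11.13 and 11.21 in OE. All OE arrays lay far above all Tainung 67 arrays, by a log2 change of 5.51 (SE 0.23, adjusted p = 6.58e-07 by limma). PR1-type genes encode small secreted proteins that serve as markers of pathogen responses. The PR1-type gene LOC_Os01g28500 read 8.48, 7.80 and 7.75 in Tainung 67 and 12.16, 12.45 and 12.86 in OE. It was higher on every OE array, with a log2 change of 4.48 (SE 0.29, adjusted p = 1.55e-05).

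Chitinases cleave the chitin of fungal walls. LOC_Os04g41620 read 6.66, 5.95 and 6.16 in Tainung 67 and 11.53, 11.70 and 11.74 in OE, and LOC_Os04g41680 read 6.02, 5.55 and 5.63 against 10.52, 10.52 and 11.10. Between them, LOC_Os04g41640 read 6.10, 6.23 and 4.74 against 10.68, 10.52 and 10.81, and was well above background on 2 of the 3 Tainung 67 arrays. The genotypes did not overlap at any of the 3 genes. Their log2 changes were 5.40 (SE 0.23, adjusted p = 6.88e-07), 4.98 (SE 0.34, adjusted p = 2.32e-05) and 4.98 (SE 0.36, adjusted p = 3.15e-05) in the same order. Chitinase genes of a cluster can be alike in sequence, and whether their probes read each other's transcripts was not tested. The differences of these 5 genes within slide 3 were between 4.30 and 5.81, and all 5 also passed with slide as a term of the fit, with replicate number as a block and with any single array left out.

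**Figure D3:**
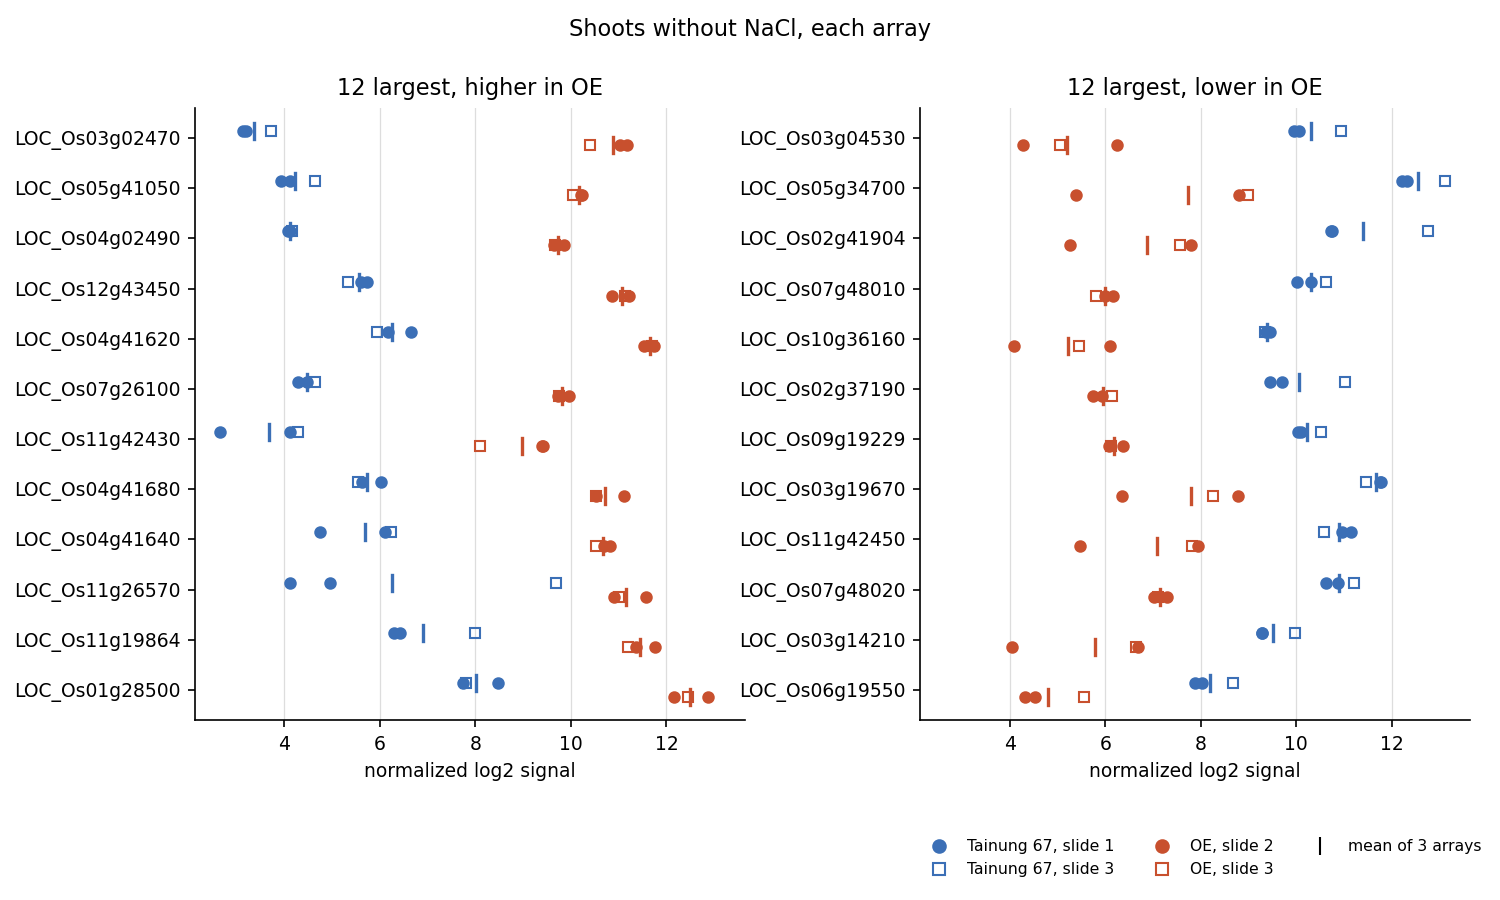
Log2 signal (x axis) of the 12 named genes with the largest increases (left) and the 12 with the largest decreases (right) in shoots without NaCl, 1 point per array, with open squares for slide 3 and a bar at the mean of 3 arrays. As the choice of these genes required, the OE points lie to the right of the Tainung 67 points in the left panel. In the right panel they lie to the left, by the same choice. LOC_Os11g26570 has 1 Tainung 67 array, on slide 3, far above its others.

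Class III peroxidases are secreted enzymes that use hydrogen peroxide to oxidize phenolic compounds of the cell wall. The peroxidase gene LOC_Os07g48010 read 10.30, 10.62 and 10.004 in Tainung 67 and 6.16, 5.81 and 5.997 in OE. Its neighbour LOC_Os07g48020 read 10.87, 11.20 and 10.61 in Tainung 67 and 7.29, 7.09 and 7.02 in OE. Both were lower on every OE array, the first with a log2 change of -4.32 (SE 0.40, adjusted p = 0.000253) and the other with one of -3.76 (SE 0.37, adjusted p = 0.000353). A peroxidase gene next to them went the other way. LOC_Os07g47990, which was looked up because it neighbours the pair, read 9.56, 9.67 and 9.06 in Tainung 67 and 12.68, 11.81 and 12.75 in OE, a log2 change of 2.98 (SE 0.27, adjusted p = 0.000228). Within slide 3 the differences of the 3 peroxidases were -4.81, -4.11 and 2.13, in the order given.

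Defensins are small cysteine-rich secreted peptides. The defensin gene LOC_Os02g41904 read 10.74, 12.75 and 10.73 in Tainung 67 and 7.80, 7.56 and 5.25 in OE. It was lower on every OE array, by a log2 change of -4.53 (SE 0.74, adjusted p = 0.00521), although the arrays of each genotype spread over more than 4-fold. With slide as a term of the fit its log2 change was nearly as large (-4.36) but did not pass (adjusted p = 0.0638).

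No role is given here for the other 16 genes of the 2 sets. Of those higher in OE, 4 stayed near background on all Tainung 67 arrays, and their increases are lower bounds, in which a dim array counts with at least the weakest signal among the probes that were well above its background. LOC_Os05g41050 read 10.21, 10.05 and 10.22 in OE, at least 58.8-fold higher than in Tainung 67 (adjusted p = 4.38e-07 by limma). LOC_Os07g26100 read 9.73, 9.75 and 9.96, at least 40.5-fold higher (adjusted p = 6.88e-07). The bounds of the other two genes, LOC_Os03g02470 and LOC_Os04g02490, were 121-fold and 46.7-fold. Some dim probes read above that weakest signal, so the bounds hold by this rule only. For LOC_Os07g26100 the bound is the plain fold.

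The remaining 3 increases differed in how tightly the arrays lay. LOC_Os11g19864 read 6.30, 8.00 and 6.42 in Tainung 67 and 11.37, 11.20 and 11.76 in OE, a log2 change of 4.54 (SE 0.52, adjusted p = 0.000794). LOC_Os11g42430 read 2.66, 4.28 and 4.12 in Tainung 67, where 1 array was well above background, and 9.39, 8.09 and 9.42 in OE, a log2 change of 5.28 (SE 0.57, adjusted p = 0.000591). LOC_Os11g26570 read 4.13, 9.68 and 4.96 in Tainung 67 and 10.89, 11.003 and 11.57 in OE. Its Tainung 67 arrays spanned more than 5 log2 units, the one on slide 3 being high, and its log2 change of 4.90 (SE 1.16, adjusted p = 0.0272) stood beside a difference of 1.33 within slide 3. It did not pass without replicate 1 or 3 of either genotype, with adjusted p between 0.0721 and 0.106, or with slide as a term of the fit (adjusted p = 0.189).

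The 9 other decreases had Tainung 67 means between 8.19 and 12.55 on the log2 scale. LOC_Os03g04530 had the largest, with 9.95, 10.93 and 10.05 in Tainung 67 and 6.25, 5.05 and 4.27 in OE, a log2 change of -5.12 (SE 0.66, adjusted p = 0.00153). LOC_Os02g37190 read 9.71, 11.01 and 9.44 in Tainung 67 and 5.94, 6.15 and 5.74 in OE, a log2 change of -4.11 (SE 0.36, adjusted p = 0.000159). LOC_Os05g34700 read 12.22, 13.11 and 12.32 in Tainung 67 and 8.81, 8.98 and 5.38 in OE. In this gene the OE array of replicate 3 was far below the other two, and its log2 change of -4.82 (SE 0.98, adjusted p = 0.0146) missed the threshold without replicate 3 of Tainung 67 (adjusted p = 0.0505). LOC_Os09g19229, LOC_Os10g36160, LOC_Os03g19670, LOC_Os11g42450, LOC_Os03g14210 and LOC_Os06g19550 fell with log2 changes between -4.18 and -3.40, with adjusted p between 0.00106 and 0.0297. Across all 12 decreases, replicate 3 was the lowest OE array in 10. Within slide 3 the decreases were between -5.88 and -2.76, with a median of -4.12 against -4.13 between slides 1 and 2, and 6 of the 12 passed with slide as a term of the fit, against 11 of the 12 increases.

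Genes known for roles in salt stress, hormone signalling and shoot function were read from lists of 188 genes. Tested probes were paired with 26 of them, of which 7 were higher in OE, 4 were lower and 15 did not pass, where 21.9% of the tested probes with a locus were higher and 25.8% lower. Their median log2 change was 0.62, against -0.17 over the 1612 tested probes with a locus and 0.01 over all tested probes. The increases were in the ABA lists and in 1 jasmonate gene, and the decreases were spread over 4 lists with 1 gene in each. Genes called measured are those with a named probe. The other list genes have no name here, since names came only from the study's lists of changed genes. The study's full list was at hand only in part (1182 genes), so a gene without a name may still have been listed there.

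The ABA signalling list held 23 genes, of which 4 had a named probe. Of these 4, 3 were higher in OE, where 21.9% of all tested probes with a locus were. The bZIP factor *OsABI5* (LOC_Os01g64000) read 5.48, 6.002 and 4.56 in Tainung 67 and 7.72, 6.56 and 7.69 in OE, a log2 change of 1.98 (SE 0.49, adjusted p = 0.0323). The kinase gene *SAPK1* (LOC_Os03g27280), a member of the SnRK2 family, read 6.60, 7.58 and 6.84 against 8.23, 8.11 and 8.49, a log2 change of 1.27 (SE 0.33, adjusted p = 0.0378). The clade A phosphatase gene LOC_Os09g15670 read 8.02, 8.67 and 7.45 against 9.52, 10.26 and 10.51, a log2 change of 2.05 (SE 0.40, adjusted p = 0.0131). Phosphatases of this clade hold the pathway back, while *OsABI5* carries it forward, so the genes that rose include both directions of control. A second clade A phosphatase gene, LOC_Os03g16170, did not pass, with a log2 difference of 0.41 (SE 0.64, adjusted p = 0.754). Within slide 3 the differences of *OsABI5*, *SAPK1* and LOC_Os09g15670 were 0.55, 0.53 and 1.59.

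The list of ABA- and stress-responsive genes held 24, of which 8 had a named probe. Of these 8, 3 were higher, all encoding LEA proteins, and 1 was lower. *RAB16B* (LOC_Os11g26780), a dehydrin gene, read 6.24, 9.60 and 6.56 in Tainung 67 and 11.21, 11.67 and 12.59 in OE, a log2 change of 4.36 (SE 0.85, adjusted p = 0.0127). The RAB16 genes lie side by side and are alike in sequence, so its probe may read more than 1 of them, which was not tested. *Wsi18* (LOC_Os01g50910), named for its induction by water stress, read 4.22, 7.16 and 4.99 in Tainung 67, where 1 array was well above background, and 7.58, 10.45 and 9.96 in OE, a log2 change of 3.87 (SE 1.07, adjusted p = 0.0480). *OsLEA3* (LOC_Os05g46480) read 3.36, 4.90 and 3.88, also with 1 array well above background, against 5.50, 6.76 and 7.21, a log2 change of 2.44 (SE 0.64, adjusted p = 0.0391). In each of the 3 genes the slide 3 array was the highest of Tainung 67, yet all OE arrays lay above it. The transcription factor gene *OsNAC006* (LOC_Os01g09550) read 9.72, 9.12 and 9.68 in Tainung 67 and 8.57, 8.26 and 8.36 in OE, lower on every OE array, with a log2 change of -1.11 (SE 0.18, adjusted p = 0.00453).

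The other 4 stress-responsive genes with a named probe did not pass. *OsSRO1c*, a gene of the RCD1 family, had a log2 difference of 2.19 (adjusted p = 0.0507) and the homeodomain-leucine zipper gene *OsHOX24* of 1.94 (adjusted p = 0.0825). With replicate number as a block both passed, with adjusted p of 0.0429 and 0.0473. The dehydrin gene *OsDhn1* had a difference of 1.21 (adjusted p = 0.155) and the F-box gene *OsMAIF1* of 0.59 (adjusted p = 0.4995). The ABA synthesis gene *OsNCED4* read 4.22, 5.07 and 4.12 in Tainung 67, where 1 array was well above background, and 5.90, 7.65 and 6.46 in OE. Its arrays did not overlap, but the difference of 2.20 (SE 0.94, adjusted p = 0.173) did not pass.

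The ABA-related calls rested on few arrays. In all 7 list genes that were higher in OE, the slide 3 array of Tainung 67 read higher than its 2 other arrays, and the part of this array in the results was not tested beyond the values given here. Without replicate 1 or without replicate 3 of Tainung 67, 2 of the 11 list genes that passed still did, and without replicate 3 of OE, 4 did. These 2 were *OsNAC006* and the Rubisco gene named below. With slide as a term of the fit, *OsJAZ11* and the Rubisco gene passed. With replicate number as a block, all 11 passed.

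**Figure D4:**
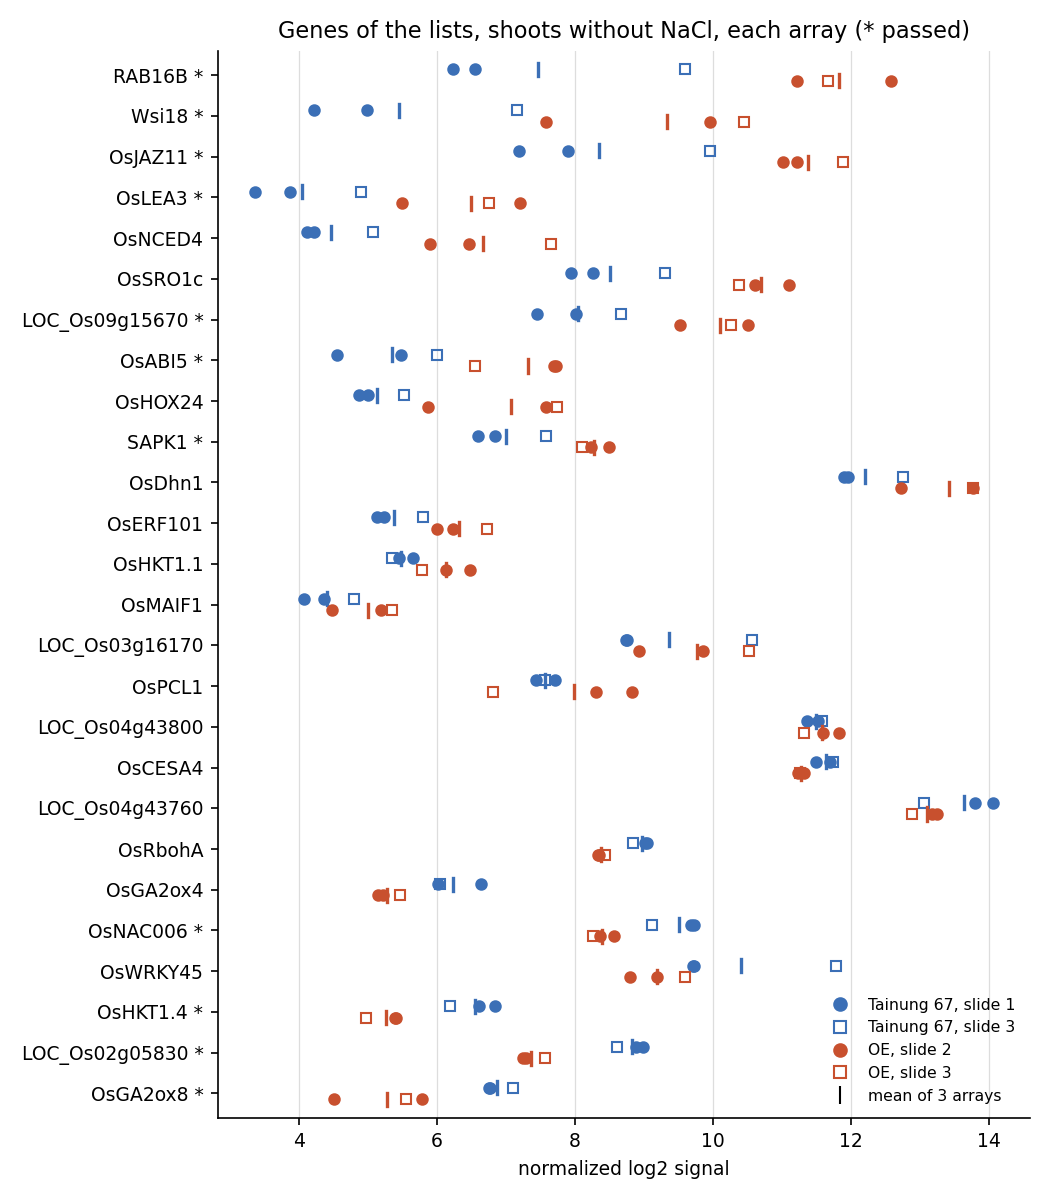
Log2 signal (x axis) of the 26 measured genes of the lists in shoots without NaCl, ordered by their difference, 1 point per array, with open squares for slide 3 and a bar at the mean of 3 arrays. An asterisk marks the 7 genes that passed upward, near the top, and the 4 that passed downward, near the bottom, and in the 7 the slide 3 array is the highest of Tainung 67.

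The jasmonate list held 1 measured gene, *OsJAZ11* (LOC_Os03g08320), which encodes a repressor of jasmonate signalling. It read 7.19, 9.96 and 7.90 in Tainung 67 and 11.02, 11.89 and 11.22 in OE, a log2 change of 3.03 (SE 0.63, adjusted p = 0.0167). The genotypes did not overlap, and the difference was 1.93 within slide 3. The 3 measured genes of the defence list did not pass. They were *OsWRKY45*, a transcription factor of salicylic acid responses, with a log2 difference of -1.21 (adjusted p = 0.209), and 2 phenylalanine ammonia-lyase genes, LOC_Os04g43760 at -0.54 (adjusted p = 0.235) and LOC_Os04g43800 at 0.09 (adjusted p = 0.888). Phenylalanine ammonia-lyase is the entry enzyme of phenylpropanoid synthesis.

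HKT transporters move sodium, and those of subfamily 1 help keep it out of leaf blades. *OsHKT1.4* (LOC_Os04g51830) read 6.61, 6.19 and 6.85 in Tainung 67 and 5.40, 4.98 and 5.41 in OE, lower on every OE array by a log2 change of -1.28 (SE 0.25, adjusted p = 0.0125). Its neighbour *OsHKT1.1* (LOC_Os04g51820) read 5.66, 5.36 and 5.45 in Tainung 67 and 6.48, 5.79 and 6.14 in OE, a difference of 0.65 (SE 0.25, adjusted p = 0.135) that did not pass. Gibberellin 2-oxidases inactivate gibberellins. *OsGA2ox8* (LOC_Os05g48700) read 6.76, 7.10 and 6.76 in Tainung 67 and 4.52, 5.55 and 5.78 in OE, a log2 change of -1.59 (SE 0.37, adjusted p = 0.0264), while *OsGA2ox4* had a difference of -0.96 (adjusted p = 0.182). *OsHKT1.4* and *OsGA2ox8* did not pass with slide as a term of the fit, with adjusted p of 0.117 and 0.0878 at log2 changes of -0.997 and -1.62, so the change of *OsGA2ox8* was as large there.

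The lists of single measured genes gave few other differences. The NADPH oxidase gene *OsRbohA* had a log2 change of -0.59 (adjusted p = 0.0484), which is less than 2-fold and at the edge of the 8.87% of tested probes with an adjusted p under 0.05 at any fold. The secondary wall cellulose synthase gene *OsCESA4* (-0.37, adjusted p = 0.219), the clock gene *OsPCL1* (0.41, adjusted p = 0.660) and the transcription factor gene *OsERF101* (0.93, adjusted p = 0.168) did not pass. Of the genes listed as shoot markers, only 1 had a named probe, LOC_Os02g05830. It encodes a small subunit of Rubisco, the enzyme that fixes carbon dioxide. This gene read 8.89, 8.61 and 8.99 in Tainung 67 and 7.30, 7.56 and 7.24 in OE, well above background on all 6 arrays. Its Tainung 67 mean of 8.83 lay below the median of 9.37 over all tested probes, so it is not read as a measure of photosynthetic tissue. Its decrease, a log2 change of -1.46 (SE 0.20, adjusted p = 0.00195), passed with any single array left out and with slide as a term of the fit. None of the root markers had a named probe, so root tissue in the samples was not checked. In whole shoots, fewer cells of a type and less RNA per cell cannot be told apart.

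Some probes were detected in 1 genotype only. On all 3 OE arrays and on no Tainung 67 array, 67 probes were well above background, of which 46 passed, and 150 showed the reverse, of which 46 passed. The lower bounds of the differences were larger for OE, with a median log2 bound of 2.07 and 35 probes over 4-fold, against 0.81 and 2 probes for Tainung 67. The probes found in Tainung 67 only were dim there too. LOC_Os06g18960 read 6.45, 6.74 and 6.65 in Tainung 67, at least 3.95-fold higher than in OE, and LOC_Os03g30260 read 6.14, 7.21 and 6.10, at least 3.36-fold higher. The largest of the bounds was that of the unnamed probe CUST_35194, at least 5.16-fold higher in Tainung 67. For CUST_35194 and LOC_Os03g30260 the bounds are the plain folds, since their dim OE arrays read above the weakest signal used. Detection was lower on the OE arrays in general. On OE replicates 1 to 3, 80.25%, 85.87% and 79.25% of probes were well above background. On the Tainung 67 replicates 81.83%, 88.01% and 81.87% were. How far this gap made the counts of 67 and 150 unequal was not tested, so their difference is not read as a result. The count for Tainung 67 depended on 1 array. Without replicate 2 of OE, 713 probes were detected in Tainung 67 only, and without replicate 2 of Tainung 67, 278 were detected in OE only.

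Among named loci that lie next to each other, 5 runs of at least 3 passed in the same direction. They held 15 of the 769 passing probes with a locus. Among the largest changes and list genes above, those on chromosomes 1 to 4 were paired in the study's list. Those on chromosomes 5 to 12 were placed by matching values, which required a like difference under both conditions. Names were thus uneven along the genome, and where the runs lie is not read as a result. A run was broken by a step of more than 30 in the locus number. The largest differences were in a run on chromosome 1 of genes of the beta-1,3-glucanase family, enzymes that cleave glucans of plant and fungal walls. LOC_Os01g71670 read 5.58, 7.04 and 4.74 in Tainung 67 and 9.72, 10.03 and 10.10 in OE, a log2 change of 4.16 (SE 0.48, adjusted p = 0.000839). LOC_Os01g71680 and LOC_Os01g71690 were higher by log2 values of 1.75 (adjusted p = 0.0329) and 2.12 (adjusted p = 0.0171), but by 0.32 and 0.57 within slide 3. A run on chromosome 8, from LOC_Os08g04230 to LOC_Os08g04250, rose by 1.16 to 2.42, and a run on chromosome 3, from LOC_Os03g52370 to LOC_Os03g52390, rose by 1.42 to 1.51. The 2 runs of decreases lay on chromosome 1, from LOC_Os01g68720 to LOC_Os01g68740 (-2.20 to -1.30), and on chromosome 4, from LOC_Os04g53780 to LOC_Os04g53810 (-1.95 to -1.20). With slide as a term of the fit, 3 loci in runs were left. Neighbours also differed in direction, since beside LOC_Os11g42430, which rose, LOC_Os11g42450 fell with a log2 change of -3.82 (SE 0.92, adjusted p = 0.0297), and beside LOC_Os10g36160, which fell, LOC_Os10g36180 rose by 2.93 (SE 0.61, adjusted p = 0.0160). The call of LOC_Os11g42450 was lost without any single Tainung 67 array, without replicate 1 or 3 of OE (adjusted p between 0.0504 and 0.124 over these) and with slide as a term of the fit (-2.39, adjusted p = 0.324).

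The same genes were read in shoots kept with 150 mM NaCl, where the genotypes differed at 1244 probes (3.35%). These values come from other arrays of both genotypes, but the response of Tainung 67 to NaCl shares its untreated arrays with the comparison above, so levels are given side by side without a test of that response. The chitinase, PR1-type and thaumatin-like genes that were high in unstressed OE shoots were also high in both genotypes with NaCl. LOC_Os04g41620 had a mean log2 signal of 6.26 in Tainung 67 and 11.66 in OE without NaCl, and 12.05 and 13.10 with NaCl. The difference between the genotypes was smaller with NaCl, by a log2 value of -4.35 (adjusted p = 0.00110 for the interaction by limma). For LOC_Os01g28500 the means were 8.01 and 12.49 without NaCl and 12.51 and 13.36 with NaCl, an interaction of -3.63 (adjusted p = 0.0120). For LOC_Os12g43450 they were 5.56 and 11.06 without NaCl and 9.72 and 12.21 with NaCl, an interaction of -3.01 (adjusted p = 0.0113). The interaction also had an adjusted p under 0.05 for LOC_Os04g41640 and LOC_Os04g41680. Several genes that fell in unstressed OE shoots were low in Tainung 67 with NaCl too. LOC_Os02g37190 had means of 10.05 in Tainung 67 and 5.94 in OE without NaCl, and of 5.97 and 5.04 with NaCl, and LOC_Os03g04530 of 10.31 and 5.19 without NaCl and 4.85 and 4.07 with NaCl. The dehydrin gene *RAB16B* had means of 7.47 and 11.82 without NaCl and 14.42 and 16.17 with NaCl, where its genotype difference did not pass (1.75, adjusted p = 0.257).

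**Figure D5:**
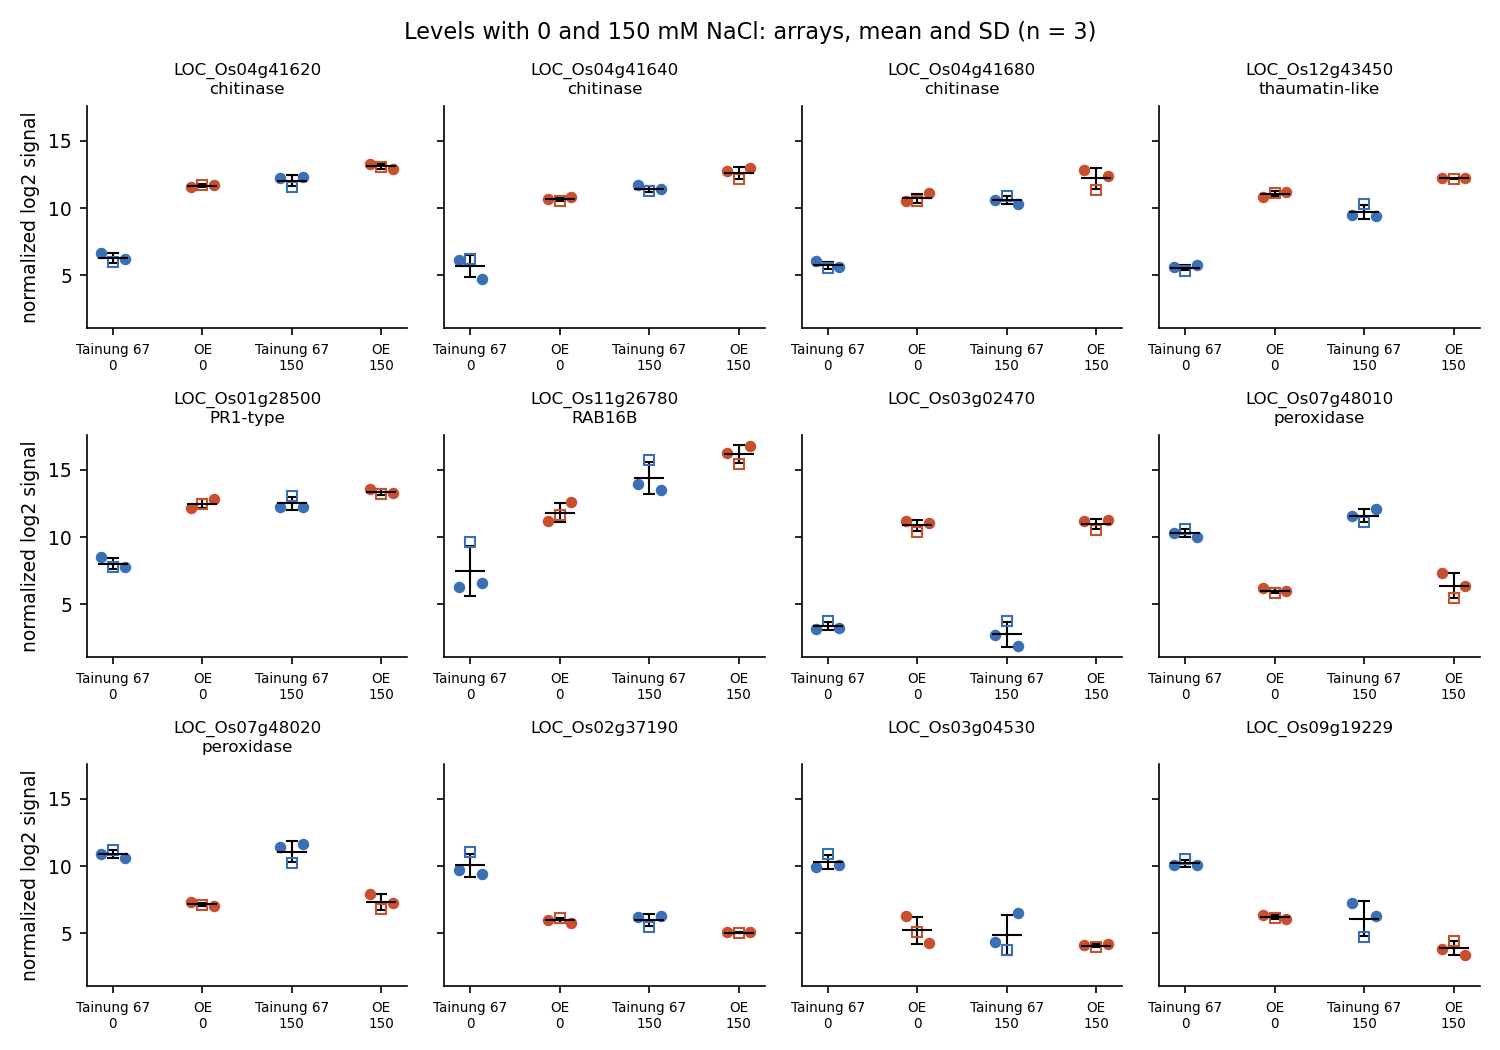
Log2 signal (y axis) of 12 of the named genes in Tainung 67 and OE with 0 or 150 mM NaCl, 1 point per array (open squares for slide 3), with the mean and SD of 3 arrays in black. The chitinase, PR1-type and thaumatin-like genes are low in Tainung 67 without NaCl and high in the other 3 groups, and the 2 peroxidase genes are low in OE at both concentrations.

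These 5 were the genes with an interaction adjusted p under 0.05 among the 24 with the largest differences, and 35 of all tested probes (0.0942%) reached it. The 24 were chosen for a large difference without NaCl, which the interaction subtracts on the same arrays. That choice favours a smaller difference with NaCl, so nothing is read from the count of 5 against the share of all probes, and the adjusted p of these genes carry the same limit. The peroxidases did not reach it. With NaCl, the log2 change was -5.23 for LOC_Os07g48010 and -3.78 for LOC_Os07g48020, with interaction adjusted p of 0.748 and 0.998. Of the 12 increases, 9 also passed with NaCl in the same direction, with a median log2 change of 3.08 over the 12. Of the 12 decreases 3 did, with a median of -1.63. Part of these genes, the 2 peroxidases among them, were named by matching values in the study's list of genes changed alike under both conditions. For those, a difference in the same direction with NaCl was a condition of the name. The counts of 9 and 3 are therefore no independent evidence that the differences persist. In 3 other genes with an interaction adjusted p under 0.05, chosen after their values were seen, the difference changed sign and passed under both conditions. LOC_Os01g58280 and LOC_Os02g36830 were lower in OE without NaCl (-2.49 and -1.32) and higher with it (1.04 and 1.98). LOC_Os04g33920 was higher without NaCl (1.78) and lower with it (-2.04). The difference of LOC_Os02g52810 also changed sign, from -1.08 to 0.48, but did not pass with NaCl (adjusted p = 0.0997 by limma). Genes named by matching values could not show such a change, by the condition for their names.

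Most probes that passed have no locus at hand. The largest such increases were those of CUST_31880 and CUST_8519. In OE, CUST_31880 read 11.18, 10.43 and 11.07 and was at least 114-fold higher than in Tainung 67 (adjusted p = 7.23e-07 by limma). CUST_8519 read 10.56, 10.36 and 10.63 and was 74.9-fold higher (adjusted p = 1.33e-07 by limma). Its dim Tainung 67 arrays read above the weakest signal used for the bounds, so its bound is this plain fold. The largest decreases were those of CUST_15707 (log2 change -4.38, SE 0.43, adjusted p = 0.000353) and CUST_41786 (-4.07, SE 0.86, adjusted p = 0.0171). On the 6 arrays CUST_31880 ran close to the probe of LOC_Os03g02470 and CUST_15707 close to that of LOC_Os07g48010, and whether such probes read the same transcript was not tested. Among 1615 passing probes without missing values, 54 fell into 6 groups of at least 5 probes with nearly the same values on all 12 arrays (average linkage, cut at a Euclidean distance of 1 log2 unit). The largest group held 25 probes, all higher in OE, by 3.40 to 3.89. Counts of probes are therefore not counts of genes. Of 207 tested probes designed for miRNAs, 4 passed, where 1618 of all 37144 tested probes (4.36%) did, so the count is not read as a result. CUST_81 (1.35, adjusted p = 0.0155) and CUST_438 (1.20, adjusted p = 0.0336) were higher in OE. CUST_292 (-1.39, adjusted p = 0.00246) and CUST_418 (-1.12, adjusted p = 0.0499) were lower. Small RNAs were not isolated, and which transcripts these probes read is not known.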

How the data were processed

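Total RNA of shoots was labelled with Cy3 and hybridized to 12 single-dye Agilent 4x44K rice arrays, 3 for each of 4 groups, and the methods speak of pooled labelled cRNA. The authors deposited, for each array, spot signals and local backgrounds as intensity values written by Agilent Feature Extraction 10.7.1.1, with flags for outliers and for spots well above background, and normalized log2 values. Groups and replicate numbers were taken from the titles. For untreated OE the source names carry the same replicate number on every array. Median signals were background-corrected (normexp, offset 0), outlier spots set to missing, arrays quantile-normalized and repeat spots averaged. Control spots (1417 an array) and 5333 dim probes were left out. Saturation was not found on any spot. The number of arrays limits the precision.

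The 4 group means were fitted with limma 3.58.1 in R 4.3.3 (lmFit, eBayes), and the fit was tested on simulated data. Same-numbered arrays of the genotypes without NaCl deviated together from their group means (correlations 0.412, 0.582 and 0.356). Deviations balance out within a group, so a shift shared by the slide 3 arrays alone would make all of these positive. The correlations therefore cannot show that the numbers pair the arrays of slides 1 and 2. All values come from the fit without a replicate block unless the block is named. Slide 3 holds replicate 2, so number and slide cannot be told apart. Loci came from the study's gene lists. Of its full list only a part was at hand, which paired 1182 loci with a probe. Another 452 were placed on a probe by matching values (428 of 429 such matches that could be checked were right). The 452 came from the genes that the study found changed alike under both conditions. The fold changes and p-values in those lists were used for nothing else. Of 18 symbols looked up, 12 were found in RefSeq on the same chromosome.

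Named genes were the 12 largest increases and the 12 largest decreases among probes with a locus that passed, with separated arrays and the same direction on slide 3, the members of the gene lists with a probe, the 2 unnamed probes with the largest fold and the 5 with the largest bound in each direction. Members and lists were chosen with earlier results of these data known. Alternatives were the background correction, scaling, filter on dim probes, arrays in the fit, replicate number or slide as a term, replicates 1 and 3 averaged, the methods' t-test and each array left out.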

Additional observations from a re-analysis of the deposited data

Results flagged for a closer look

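The genotype difference was smaller with 150 mM NaCl than without it for 5 of the 24 genes with the largest differences, by the interaction term of the limma fit. The interaction (the log2 difference between OE and Tainung 67 with NaCl minus that without) was -4.35 for LOC_Os04g41620, -3.81 for LOC_Os04g41640 and -3.38 for LOC_Os04g41680, the 3 chitinase family genes (adjusted p = 0.00110, 0.0279 and 0.0347). It was -3.63 for the PR1-type gene LOC_Os01g28500 (adjusted p = 0.0120) and -3.01 for the thaumatin-like gene LOC_Os12g43450 (adjusted p = 0.0113). The 24 genes were chosen for a large difference without NaCl, which is a term of the interaction, and that choice favours a smaller difference with NaCl. Both differences were above 0 for each of the 5 genes. At 150 mM NaCl, LOC_Os12g43450, LOC_Os04g41620 and LOC_Os04g41680 still passed, and LOC_Os04g41640 (1.17, adjusted p = 0.0779) and LOC_Os01g28500 (0.85, adjusted p = 0.108) did not.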

How the results depend on the processing

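No named probe that passed changed sign under an alternative, and among the 1560 values of the 59 named probes 165 fell below the threshold and 21 passed it anew. Of the probes that did not pass, 4 changed sign. With slide as a fixed term the log2 differences were -0.35 for LOC_Os03g16170, -0.21 for *OsMAIF1* and -0.53 for *OsPCL1*, and with slide as a random block -0.0438 for LOC_Os03g16170 and -0.16 for *OsPCL1*. With an array left out, *OsPCL1* ranged from -0.0123 to 0.99 and LOC_Os04g43800 from -0.0377 to 0.22, the lowest without replicate 1 of untreated OE, and LOC_Os04g43800 was -0.000501 with replicates 1 and 3 averaged.

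Against 1618 probes in the fit reported, 946 passed with slide as a term (639 of them in common), 3439 with replicates 1 and 3 alone (1543 in common), 177 with these averaged (all in common) and 338 with the methods' t-test after adjustment (317 in common). Increases made up 47.3% of the passing probes in the fit reported and 58.0% with slide as a term. Each array left out in turn gave 744 to 2081, with 849 and 863 without replicates 1 and 3 of untreated Tainung 67 and 744 without replicate 3 of untreated OE. Where 11 list genes passed in the fit reported, the number of list genes passing was 5 at offset 50, 7 with all 12 arrays above background (6 of them among the 11), 2 with slide as a term, 6 with slide as a random block, 0 with replicates averaged and 1 by the t-test, and 2 to 15 with an array left out (2, 2 and 4 without those same arrays). With the replicate block 1958 probes passed, all 11 list genes kept their call and *OsSRO1c* and *OsHOX24* gained one. A fit with the replicate block over the 6 untreated arrays alone was chosen after seeing the data. In it 1774 probes passed, *OsABI5* (adjusted p = 0.0761) and *SAPK1* (adjusted p = 0.0532) lost their calls, and *OsSRO1c*, *OsHOX24*, *OsNCED4* and *OsDhn1* gained one.

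Where 15 loci lay in runs, the number was 6 at offset 50, 3 with all 12 arrays above background, 4 in a fit of the 6 arrays, 3 with slide as a term or a random block, 0 with replicates averaged and 0 by the t-test, and 0 to 15 with an array left out (0 without each of the arrays named above, 3 without replicate 1 of untreated OE, and 9 without its replicate 2 or replicate 1 or 3 of NaCl-treated Tainung 67). Where 5 of the 24 genes had an interaction, 8 did with replicates 1 and 3 alone, 0 with these averaged and 1 to 5 with an array left out (1 without replicate 3 of untreated OE, and 3 without its replicate 1 or 2, replicate 1 of NaCl-treated Tainung 67 or replicate 3 of NaCl-treated OE). Probes detected in 1 genotype numbered 217, and 235 to 790 with an array left out (790 without replicate 2 of OE, 440 without that of Tainung 67). The causes were not tested. The GCC box count planned was not run, since promoters were not analysed here, and replicate 2 alone allows no test.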
